A study of Homo sapiens with 61 samples.

Results

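The genes described here are 5 alpha tubulin genes (TUBA1A, TUBA1B, TUBA1C, TUBA4A and TUBA8) and TTC5, which encodes the factor that recognises tubulin chains as they are made. They were chosen by name, with earlier results of these data known, and make up 6 of the 58440 genes in the count tables. The values come from 61 poly(A) RNA-seq libraries of neurons made from the human induced pluripotent stem cell line WTC11 by switching on the transcription factor NGN2 with doxycycline. All 14 groups therefore share that line and the NGN2 transgene. In experiment 1 the neurons were wild type (WT), DLK KO, LZK KO or DLK LZK double KO (double KO), with 4 untreated and 4 vincristine libraries each. DLK (gene MAP3K12) and LZK (gene MAP3K13) are related kinases that report damage to axons. In experiment 2 the neurons carried the machinery of CRISPR interference, which represses the gene that a guide RNA (gRNA) points to, and a lentiviral gRNA against ATF2, against JUN or of scrambled sequence (Control gRNA). Each of these 6 groups had 5 libraries except ATF2 gRNA with vincristine, which had 4. Vincristine, which binds tubulin and takes microtubules apart, was given at 5 nM for 16 hours to day 14 cultures, and the groups called untreated received the solvent. The labels do not say whether a knockout line is 1 clone, or whether replicates were separate cultures. If they were not, p-values measure only the spread between these samples, which may be technical.

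Microtubules are hollow tubes built from pairs of 1 alpha and 1 beta tubulin, and long axons depend on them. Animal cells watch the amount of unpolymerised tubulin. When it rises, as when a drug takes microtubules apart, TTC5 binds the first amino acids of newly made alpha and beta tubulin on the ribosome, and through SCAPER it calls in the CCR4-NOT complex, which shortens the poly(A) tail and so destroys the messenger RNA. Of the alpha genes, TUBA1A is the main form of young neurons, TUBA1B and TUBA1C are made in many cell types, TUBA4A lacks the terminal tyrosine in its encoded chain, and TUBA8 is a divergent form.

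The starts of the coding sequences are shown because they encode the first amino acids of the new chain, which TTC5 binds. Each runs over the first 30 bases from the ATG, 5′ to 3′, with the first 12 bases (4 codons) in capitals, from the GENCODE 29 transcripts on GRCh38.
TUBA1A: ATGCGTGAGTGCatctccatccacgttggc
TUBA1B: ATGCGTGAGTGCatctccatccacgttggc
TUBA1C: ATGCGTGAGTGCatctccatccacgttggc
TUBA4A: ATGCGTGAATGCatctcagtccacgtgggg
TUBA8: ATGCGGGAATGCatatcagtccacgtgggc
TUBB: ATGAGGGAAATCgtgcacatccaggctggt
TUBB6: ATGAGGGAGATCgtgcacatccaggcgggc
TUBG1: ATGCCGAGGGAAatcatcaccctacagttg
TTC5: ATGATGGCTGATgaagaggaagaagtcaag
The capitals of the 5 alpha genes all encode methionine, arginine, glutamate and cysteine, and those of TUBB and TUBB6, both beta tubulins, encode methionine, arginine, glutamate and isoleucine. TUBG1, a gamma tubulin, and TTC5 itself have neither start, though in TUBG1 codons for arginine, glutamate and isoleucine follow a proline codon. Across 19564 protein-coding genes, 19 opened with one of these starts, 9 of the alpha type and 10 of the beta type, and by symbol all 19 are tubulin genes.

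TUBA1A (ENSG00000167552.13) lies at chr12:49184796-49189324 on the minus strand of GRCh38, TUBA1B (ENSG00000123416.15) at chr12:49127782-49131397 on the minus strand and TUBA1C (ENSG00000167553.15) at chr12:49188736-49274603 on the plus strand. TUBA4A (ENSG00000127824.13) lies at chr2:219249711-219278170 on the minus strand, TUBA8 (ENSG00000183785.14) at chr22:18110331-18146554 on the plus strand and TTC5 (ENSG00000136319.11) at chr14:20256558-20305994 on the minus strand. The coding sequences of TUBA1A, TUBA1B and TUBA1C are 96.3% to 97.3% identical, against 81.5% to 86.2% between any of these 3 and TUBA4A or TUBA8. Of all 100-base stretches of the transcript, 71.1% for TUBA1B, 29.6% for TUBA1C and 26.6% for TUBA1A occur exactly in another gene, mainly each other and the pseudogene TUBAP2. A read from such a stretch cannot by itself be assigned to 1 gene, though the other read of its pair may lie outside it. How such reads were counted is not given in the sources used here, so the levels of these 3 genes are less certain than their counts alone. For TUBA1C, the lowest of the 3 by far, this matters most. TUBA1A and TUBA1C overlap on opposite strands, TUBA4A overlaps STK16 and TUBA4B, and 99.9% of the stretches inside the coding sequence of TUBA8 also occur in transcripts annotated to PEX26 or AC008079.1. The strand setting of the counting is not given in the sources used here either, so reads of overlapping genes may not have been told apart.

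Total counts ran from 8.41 to 14.6 M (mega) per library (median 10.3 M) in experiment 1 and from 38.9 to 88.4 M (median 53.5 M) in experiment 2, and levels are compared within an experiment only. Levels are in CPM, the count of a gene relative to the library total after TMM scaling, as the cpm function of edgeR gives it. In untreated libraries MAP3K12 stood at 23.7 to 29.7 CPM in DLK KO against 89.7 to 94.3 in WT, MAP3K13 at 30.1 to 34.2 in LZK KO against 96.8 to 101 in WT, and the double KO was low for both. ATF2 stood at 0.106 to 0.877 CPM in ATF2 gRNA against 111 to 158 in Control gRNA, and JUN at 2.24 to 3.47 in JUN gRNA against 81.7 to 97.8. JUN was also low in untreated ATF2 gRNA, at 18.2 to 22.5 CPM. ATF2 was lower in untreated DLK KO, at 64.5 to 77.8 CPM against 121 to 151 in WT. All 8 neuron markers stood at a group mean of at least 1 CPM in every group, while of the 5 pluripotency markers NANOG and POU5F1 were at 0 in some libraries of each experiment, with means under 1 CPM. The other 3 were detected, with means in experiments 1 and 2 of 19.5 and 9.52 CPM for LIN28A, 13.6 and 18.2 for SOX2, which neural progenitors also make, and 1.51 and 10.5 for DPPA4. Astrocyte markers summed to at most 6.99 CPM and microglia markers to at most 1.49, and the oligodendrocyte markers, up to 48.5, were mostly MBP, with SOX10 and MOG at means under 1 CPM. One library stood apart from its group. WT vincristine replicate 4 had JUN at 289 CPM and NES at 894, against 538 to 629 and 1552 to 1919 in the other 3, and its TUBA1A and TUBA1B were the highest of the 4. For the alpha tubulin genes called in WT, and for their called differences from WT in the vincristine effect, values without it are therefore given too. For other tubulin genes they are not given.

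Vincristine lowered TUBA1A and TUBA1B in all 7 lines, to between 20.6% and 44.7% of the untreated level, while TTC5 stood at 77.8% or more of the untreated level in each. A gene is called when its p-value from edgeR's quasi-likelihood test is under 0.05 after Benjamini-Hochberg adjustment over the genes tested. Of the 6 genes, 4 were called in WT, where 30.2% of all genes tested were called, and 4 in DLK KO (6.53% of all genes). Double KO had 2 (0.0658%) and LZK KO also 2 (3.88%). In experiment 2 there were 5 in JUN gRNA (15.9%), 4 in Control gRNA (35.3%) and 3 in ATF2 gRNA (6.1%). Every one of these calls was a fall, and all genes called lower made up 14.5%, 2.28%, 1.61% and 0.0603% of those tested in the 4 lines of experiment 1, and 18.1%, 4.22% and 8.31% in Control, ATF2 and JUN gRNA. In bulk RNA, fewer cells that make a transcript and less transcript per cell cannot be told apart.

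TUBA1A was the most abundant of these genes in every group. In WT it stood at 3505, 3939, 3959 and 4387 CPM untreated and at 893, 941, 1086 and 1315 CPM with vincristine. The lowest untreated library lay well above the highest treated one, and the log2 fold change was -1.90 ± 0.10 (SE, n = 4 and 4, adjusted p 7.19e-16 by edgeR), or 26.8% of the untreated level. Without WT vincristine replicate 4 it was -2.02. In DLK KO it stood at 3077, 3145, 3196 and 3446 CPM untreated and at 914, 968, 969 and 1214 with vincristine. In LZK KO the untreated values were 3918, 4248, 4286 and 4944 CPM and the treated ones 1716, 1871, 1945 and 2249. In double KO they were 3635, 3727, 3796 and 3922 CPM untreated and 1161, 1166, 1238 and 1268 treated. In each knockout line the 2 groups were fully apart, and every treated LZK KO library lay above every treated library of the other 3 lines. The level left was 31.6% in DLK KO (-1.66 ± 0.10, edgeR adjusted p 1.57e-13), 44.7% in LZK KO (-1.16 ± 0.10, adjusted p 8.03e-10) and 32.1% in double KO (-1.64 ± 0.10, adjusted p 3.99e-13).

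In experiment 2, TUBA1A in Control gRNA stood at 6774, 6871, 6902, 7109.8 and 7178 CPM untreated and at 1959, 2021, 2051, 2058 and 2077 with vincristine. In ATF2 gRNA it stood at 2822, 2898, 2931, 2969 and 3103 CPM untreated and at 583, 612, 638 and 677 with vincristine. In JUN gRNA the values were 6275, 6326, 6355, 6422 and 6659.9 CPM untreated and 1688, 1948, 2068, 2128 and 2221 with vincristine. The ATF2 gRNA libraries were the lowest both before and after the drug, and the untreated and treated libraries of each line did not overlap. The log2 fold changes were -1.78 ± 0.05 in Control gRNA (n = 5 and 5, edgeR adjusted p 3.6e-23), -2.23 ± 0.05 in ATF2 gRNA (n = 5 and 4, adjusted p 3.72e-23) and -1.67 ± 0.05 in JUN gRNA (n = 5 and 5, adjusted p 1.77e-21).

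**Figure D1:**
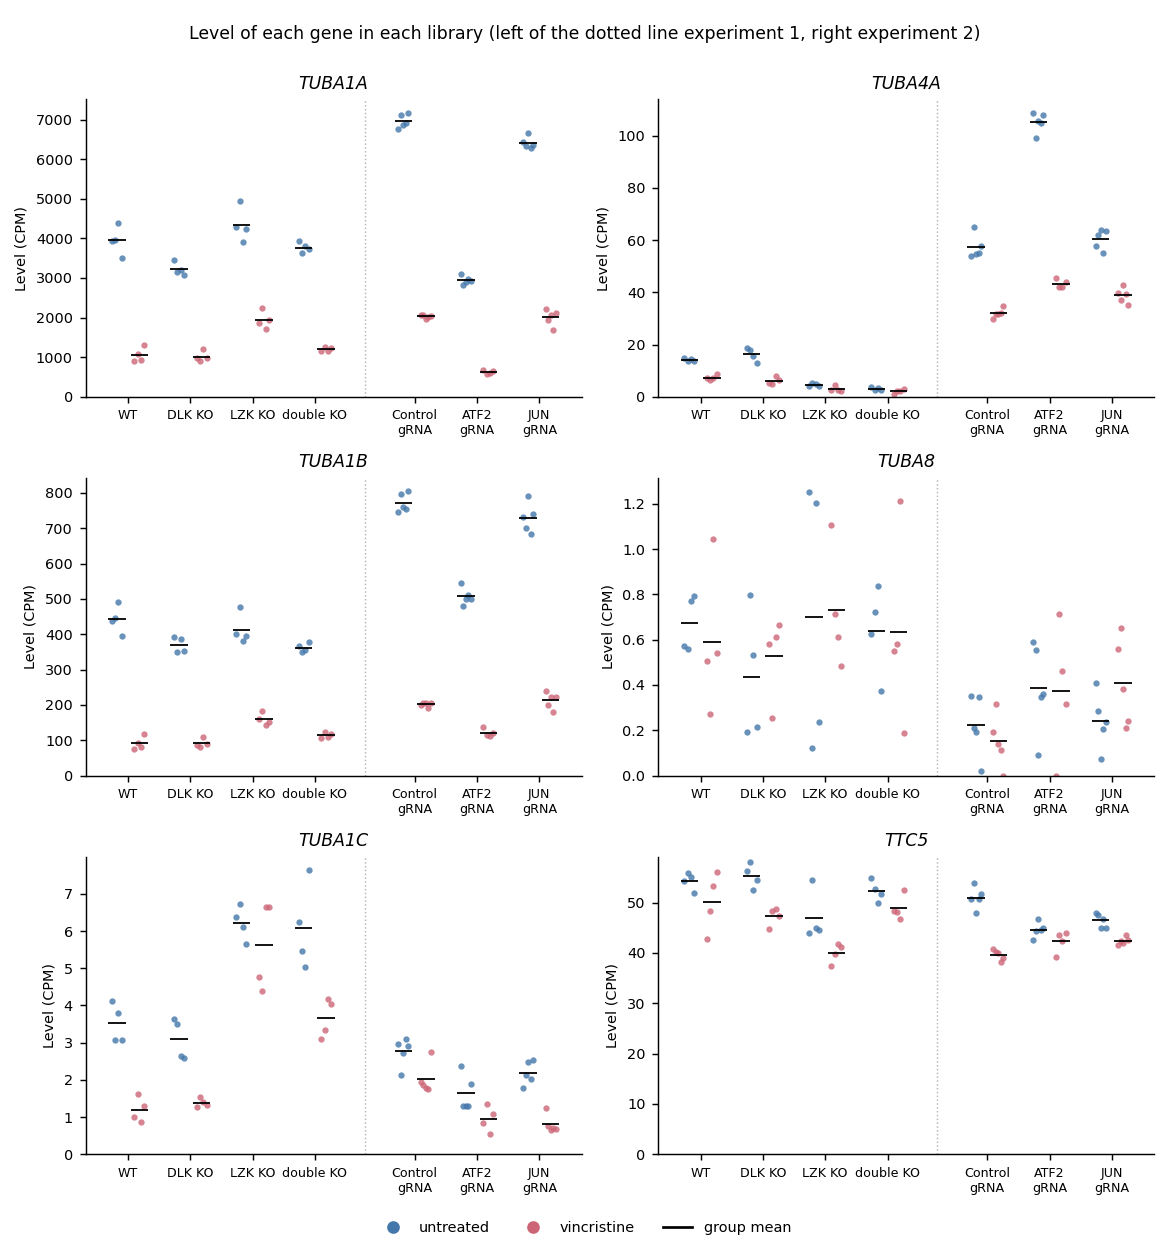
Level of each of the 6 genes in CPM (linear axes from 0) in every library, by group, with experiment 1 left and experiment 2 right of the dotted line; each point is 1 library and each line a group mean. TUBA1A in WT falls from between 3505 and 4387 CPM to between 893 and 1315, while TTC5 stays between 37.5 and 58.0 CPM in all groups.

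TUBA1B fell beside TUBA1A from a lower level. In WT it stood at 394, 438, 446 and 491 CPM untreated and at 74.9, 81.5, 91.8 and 117 with vincristine. The 2 groups were fully apart, and the log2 fold change of -2.28 ± 0.11 (edgeR adjusted p 9.17e-18), or 20.6% of the untreated level, was the deepest of any of the 6 genes in any line. Without WT vincristine replicate 4 it was -2.42. In DLK KO it stood at 349, 352, 387 and 391 CPM untreated and at 81.0, 85.0, 90.3 and 109 with vincristine. In LZK KO the values were 381, 395, 400.4 and 476 CPM untreated and 142, 153, 160.0 and 184 with vincristine. In double KO they were 349, 356, 366 and 378 CPM untreated and 106, 110.2, 118 and 123 with vincristine. As for TUBA1A, the treated LZK KO libraries were the highest treated ones. The log2 fold change was -2.02 ± 0.11 in DLK KO (24.7% of untreated), -1.66 ± 0.10 in double KO (31.6%) and -1.37 ± 0.10 in LZK KO (38.7%), all called.

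In Control gRNA, TUBA1B stood at 745, 755, 759, 797 and 805 CPM untreated and at 192, 199.6, 204, 204 and 205 with vincristine. In ATF2 gRNA it stood at 481, 498, 501, 510.2 and 546 CPM untreated and at 113, 116, 122 and 136 with vincristine. In JUN gRNA the values were 683, 701, 732, 741 and 791 CPM untreated and 181, 198, 221, 223 and 238 with vincristine. The treated JUN gRNA libraries overlapped those of Control gRNA, and the treated ATF2 gRNA libraries lay below both. The level left was 24.0% in ATF2 gRNA (-2.06 ± 0.06), 26.0% in Control gRNA (-1.94 ± 0.06) and 29.1% in JUN gRNA (-1.78 ± 0.06), all called.

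The difference in the vincristine effect between lines was tested as an interaction, and these differences share the WT or the Control gRNA libraries. TUBA1A, TUBA1B and TUBA1C fell less in LZK KO than in WT. The difference was 0.74 ± 0.14 for TUBA1A (edgeR adjusted p 0.000367), 0.91 ± 0.14 for TUBA1B (adjusted p 4.17e-05) and 1.41 ± 0.27 for TUBA1C (adjusted p 0.000448). These were 3 of the 6 genes, where 12.4% of all genes were called for that difference. Without WT vincristine replicate 4 the 3 differences were 0.86, 1.05 and 1.44. Between double KO and WT, where 19.4% of all genes were called, 2 of the 6 genes were called. TUBA1B fell less in double KO by 0.62 ± 0.14 (edgeR adjusted p 0.00227), and the difference for TUBA1A was 0.26 ± 0.14 and not called (edgeR adjusted p 0.204), with an interval at the 95% level from 99.2% to 144% of the WT ratio. Without WT vincristine replicate 4 the difference was 0.76 for TUBA1B and 0.86 for TUBA1C, and 3 of the 6 genes were called. Between DLK KO and WT, where 19.4% of all genes were also called, none of the 6 was called, with 0.24 ± 0.14 for TUBA1A and 0.26 ± 0.14 for TUBA1B, but 2 of the 6 were called without WT vincristine replicate 4 and 2 with limma voom. None was called between double KO and DLK KO (1.14% of all genes) or between double KO and LZK KO (0.916%), where TUBA1A differed by -0.48 ± 0.14 (edgeR adjusted p 0.106).

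LZK KO also differed from the other lines in markers of dividing cells, whose 5 genes summed to 66.1 to 73.6 CPM untreated and 80.8 to 95.9 with vincristine, against 11.3 to 12.6 and 10.4 to 14.8 in WT. The 5 neural progenitor markers, mostly NES, summed to 755 to 803 CPM untreated and 1036 to 2076 with vincristine in WT, and to 542 to 689 and 1043 to 1236 in LZK KO. In DLK KO the progenitor sum was 223 to 290 CPM untreated and 518 to 630 with vincristine, and in double KO it was 290 to 300 and 291 to 308. The part of these markers in the tubulin responses was not tested.

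In experiment 2, TUBA1A fell further in ATF2 gRNA than in Control gRNA, by -0.45 ± 0.07 (edgeR adjusted p 7.05e-06), and further than in JUN gRNA, by -0.56 ± 0.07 (edgeR adjusted p 2.11e-06). For TUBA1B the difference between ATF2 gRNA and Control gRNA was -0.12 ± 0.08 and not called (edgeR adjusted p 0.337), and that between ATF2 gRNA and JUN gRNA was -0.28 ± 0.08 (edgeR adjusted p 0.048), a call lost on leaving out any of 14 of the 19 libraries (adjusted p up to 0.168). Neither gene was called between JUN gRNA and Control gRNA, with 0.10 ± 0.07 for TUBA1A and 0.16 ± 0.08 for TUBA1B. Of the 6 genes, 3 were called between ATF2 gRNA and JUN gRNA (2.83% of all genes), 3 between ATF2 gRNA and Control gRNA (20.6%) and 2 between JUN gRNA and Control gRNA (15.8%).

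**Figure D2:**
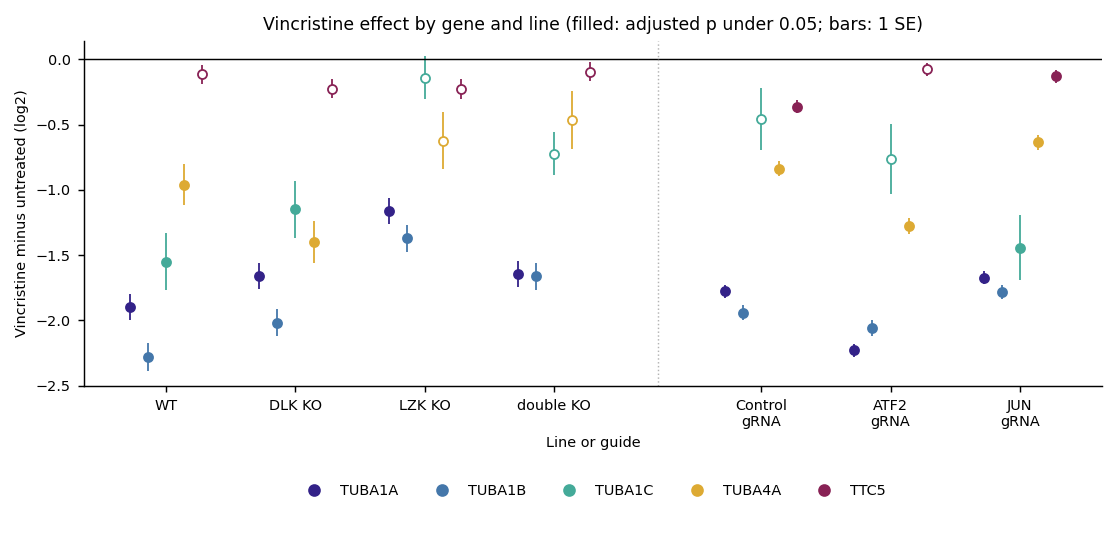
Log2 fold change with vincristine (points) ± SE (bars) of the genes other than TUBA8 in the 7 lines; filled points were called (edgeR, adjusted p under 0.05) and open points were not. TUBA1A and TUBA1B lie between -1.16 and -2.28 in every line, TUBA1C and TUBA4A vary more between lines, and TTC5 lies between -0.36 and -0.08.

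In double KO, where 12 of 18235 genes were called, tubulin genes made up most of the response. These 12 were looked up after their values were seen. Of these, 9 are tubulin genes, all lower, namely TUBA1A, TUBA1B, the beta tubulins TUBB4A (-1.65), TUBB (-1.56), TUBB4B (-1.47), TUBB2A (-1.46), TUBB2B (-1.45) and TUBB3 (-1.10), and TUBG1 (-1.06), the gamma tubulin of the centres from which microtubules grow. The other 3 are AL662797.1 (-1.87), an antisense gene that overlaps TUBB and whose reads may not be separable from it, HYDIN (-0.51) and STMN4 (0.41), a tubulin-binding stathmin and the only one that was higher. TUBA1B and TUBA1A had the second and the fourth lowest fold change of the 12. The length of this list depends on the fit. It held 11 to 14 genes when any 1 library was left out, 67 with limma voom and sample quality weights, and 1028 when only the 2 double KO groups entered the fit, and TUBA1A and TUBA1B were called in all of these. Ranked by p-value among all genes tested, TUBA1A and TUBA1B stood at places 7 and 6 in double KO, and at places 3 and 5 in ATF2 gRNA. Their places were 13 and 7 in DLK KO, 20 and 14 in LZK KO and 10 and 8 in JUN gRNA. Only in the control lines were they further down, at 91 and 45 in WT and 101 and 77 in Control gRNA.

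**Figure D3:**
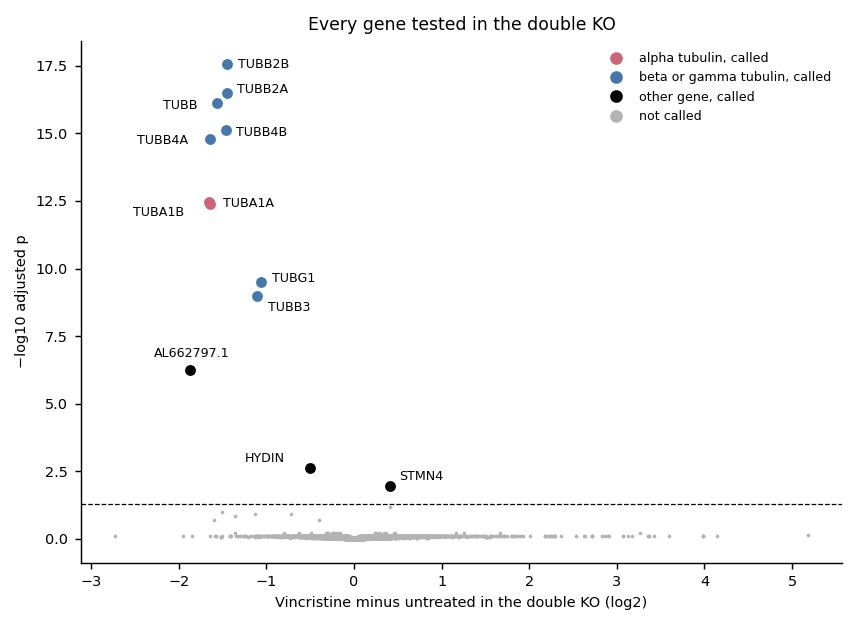
Log2 fold change with vincristine in double KO (horizontal axis) against -log10 of the edgeR adjusted p-value (vertical axis) for each of the 18235 genes tested; the 12 called genes are named, with alpha tubulins and beta or gamma tubulins in colour, and the dashed line marks the threshold of 0.05. TUBA1A and TUBA1B lie at the upper left with the beta tubulins, above the mass of genes that were not called.

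The 19 genes whose coding sequence opens with the alpha or beta start were then followed as a set. In each experiment 13 of them were tested, 5 of the alpha and 8 of the beta type. Called lower were 10 of the 13 each in WT (14.5% of all genes), DLK KO (2.28%) and JUN gRNA (8.31%). In Control gRNA (18.1%) and ATF2 gRNA (4.22%) 9 each were lower, and in LZK KO (1.61%) and double KO (0.0603%) 8 each. The median log2 fold change of the 13 was -1.50 in WT, -1.45 in double KO, -1.36 in DLK KO and -0.78 in LZK KO, where the median of all genes was within 0.01 of 0. In Control, ATF2 and JUN gRNA it was -1.26, -1.37 and -1.31, beside 0.03, -0.02 and 0.01 for all genes. A single gene with the start was called higher, TUBB6, which rose by 0.95 ± 0.16 in WT (edgeR adjusted p 1.81e-05) and 0.94 ± 0.13 in Control gRNA (edgeR adjusted p 4.42e-08), and was not called in the other 5 lines. TUBG1, which lacks the start in its first 4 codons, was called lower in all 7 lines, by -1.66 in WT and -0.94 in ATF2 gRNA at the extremes.

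TUBA1C was rare, with 10 to 82 reads per library in experiment 1 and 24 to 209 in experiment 2. In WT it stood at 3.08, 3.08, 3.79 and 4.11 CPM untreated and at 0.869, 1.01, 1.29 and 1.62 with vincristine. In DLK KO it stood at 2.58, 2.65, 3.49 and 3.63 CPM untreated and at 1.26, 1.33, 1.40 and 1.54 with vincristine. Both lines were fully apart between treatments, and the log2 fold changes of -1.55 ± 0.22 in WT (edgeR adjusted p 5.4e-07; -1.58 without WT vincristine replicate 4) and -1.15 ± 0.22 in DLK KO (adjusted p 0.000637) were called. In LZK KO it stood at 5.65, 6.11, 6.37 and 6.74 CPM untreated and at 4.40, 4.77, 6.65 and 6.65 with vincristine. These values overlap, and the log2 fold change was -0.14 ± 0.16 (edgeR adjusted p 0.741). In double KO it stood at 5.03, 5.45, 6.24 and 7.64 CPM untreated and at 3.09, 3.34, 4.04 and 4.16 with vincristine. All 4 treated libraries lay below the untreated ones, with -0.72 ± 0.16, which was not called (edgeR adjusted p 0.116) but was with voom (adjusted p 0.00625) or when only these groups entered the fit (adjusted p 0.00363). The smaller fall in double KO than in WT (0.82 ± 0.28, edgeR adjusted p 0.0315) was lost on leaving out any of 8 of the 16 libraries, with adjusted p up to 0.108.

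In experiment 2, TUBA1C in JUN gRNA stood at 1.79, 2.02, 2.12, 2.49 and 2.52 CPM untreated and at 0.656, 0.682, 0.697, 0.756 and 1.24 with vincristine. In Control gRNA it stood at 2.14, 2.72, 2.90, 2.97 and 3.09 CPM untreated and at 1.76, 1.78, 1.87, 1.93 and 2.76 with vincristine. In ATF2 gRNA the values were 1.29, 1.30, 1.30, 1.90 and 2.38 CPM untreated and 0.554, 0.847, 1.09 and 1.34 with vincristine. Only in JUN gRNA were the treatments fully apart. The fall there was called (-1.44 ± 0.25, edgeR adjusted p 2.07e-05), and the values of -0.46 ± 0.24 in Control gRNA and -0.76 ± 0.27 in ATF2 gRNA were not (adjusted p 0.14 and 0.0861). With voom, Control gRNA was called too (-0.61, adjusted p 0.000956). The difference between JUN gRNA and Control gRNA (-0.98 ± 0.34, edgeR adjusted p 0.0428) was lost on leaving out any of 14 of the 20 libraries and with no filter on low counts (adjusted p 0.103). The groups of Control gRNA and JUN gRNA with vincristine each held 1 library far above the others, at 2.76 and 1.24 CPM.

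TUBA4A fell with vincristine in WT and DLK KO and in all 3 lines of experiment 2, and its estimates in LZK KO and double KO were below 0 but not called. In WT it stood at 13.7, 13.8, 14.4 and 15.0 CPM untreated and at 6.56, 7.04, 7.09 and 8.63 with vincristine. In DLK KO it stood at 12.8, 15.6, 18.1 and 18.6 CPM untreated and at 5.03, 5.44, 6.29 and 7.87 with vincristine. Treated and untreated libraries were fully apart in both lines, with -0.96 ± 0.16 in WT (edgeR adjusted p 8.57e-06; -1.05 without WT vincristine replicate 4) and -1.40 ± 0.16 in DLK KO (adjusted p 1.05e-07). In LZK KO it stood at 3.98, 4.00, 4.81 and 5.29 CPM untreated and at 2.18, 2.55, 2.66 and 4.40 with vincristine. In double KO it stood at 2.57, 2.61, 3.52 and 3.74 CPM untreated and at 1.21, 2.25, 2.26 and 3.10 with vincristine. These 2 pairs of groups overlap. The estimates were 64.9% of the untreated level in LZK KO (interval at the 95% level 48.3% to 87.3%, edgeR adjusted p 0.115) and 72.4% in double KO (53.3% to 98.4%, adjusted p 0.802). Without LZK KO vincristine replicate 2, which had the highest treated value in that line, the change in LZK KO was -0.87 and called (edgeR adjusted p 0.0252). None of the differences in this effect between lines of experiment 1 was called for TUBA4A in the main fit. The largest estimate was 0.93, a smaller fall in double KO than in DLK KO, at place 400 of 18235 genes by p-value.

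In Control gRNA, TUBA4A stood at 53.9, 54.6, 55.0, 57.9 and 64.9 CPM untreated and at 29.7, 31.5, 31.9, 32.2 and 34.8 with vincristine. In ATF2 gRNA it stood at 99.3, 105, 106, 108 and 109 CPM untreated and at 41.9, 42.2, 43.9 and 45.6 with vincristine. In JUN gRNA the values were 55.2, 57.6, 61.9, 63.5 and 64.0 CPM untreated and 35.3, 37.1, 39.2, 39.7 and 42.9 with vincristine. All 3 lines were fully apart between treatments, and the level left was 41.2% in ATF2 gRNA (-1.28 ± 0.06), 56.0% in Control gRNA (-0.84 ± 0.06) and 64.3% in JUN gRNA (-0.64 ± 0.06), all called. TUBA4A fell further in ATF2 gRNA than in Control gRNA (-0.44 ± 0.08, edgeR adjusted p 4.72e-05) or JUN gRNA (-0.64 ± 0.08, adjusted p 2.77e-07). JUN gRNA and Control gRNA differed by 0.20 ± 0.08 (edgeR adjusted p 0.0777).

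Without the drug, TUBA4A was the gene of the 6 that differed most from WT in LZK KO and double KO. From the untreated values above it was at 31.9% of WT in LZK KO (-1.65 ± 0.17, edgeR adjusted p 7.03e-10) and at 21.8% in double KO (-2.20 ± 0.18, adjusted p 4.63e-13), with every library below every WT library, while in DLK KO it differed by 0.19 ± 0.15 and was not called. In ATF2 gRNA it was at 184% of Control gRNA (0.88 ± 0.06, edgeR adjusted p 4e-18), with every library above. These 3 calls held with any library left out. The tested genes within 2 Mb of each gene were read in the same comparisons. In DLK KO the 41 neighbours of TUBA4A had a median of -0.91 (quartiles -1.04 and -0.76), and 31 of the 41 were called lower and 0 higher. Of all 18235 genes tested there, 3267 were called lower and 3017 higher. TUBA4A did not follow its neighbours. In LZK KO and double KO, where TUBA4A itself was low, its neighbours had medians of -0.06 and 0.05, and in ATF2 gRNA 55 neighbours had a median of 0.08. Around TUBA1A, TUBA1B and TUBA1C the medians in the 3 knockout lines were 0.04 to 0.07.

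**Figure D4:**
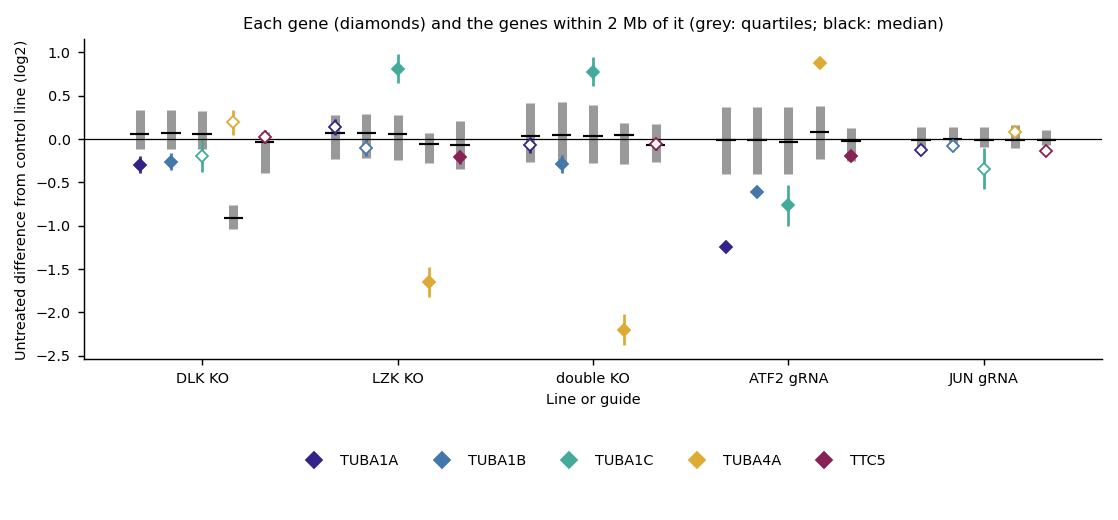
Untreated log2 difference of each gene other than TUBA8 (diamonds, ± SE, filled where called) from WT or Control gRNA, with the median (black line) and quartiles (grey bar) of the tested genes within 2 Mb. TUBA4A lies at -1.65 and -2.20 in LZK KO and double KO with neighbours near 0, and at 0.19 in DLK KO, where its neighbours centre on -0.91.

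Many genes differed between the untreated lines. Of the 6 genes, 2 were called in DLK KO against WT, where 34.5% of all genes were called, 3 in LZK KO (33.9%), 3 in double KO (45.7%), 5 in ATF2 gRNA against Control gRNA (39.9%) and 0 in JUN gRNA (11.2%). TUBA1C was higher in LZK KO (176% of WT, 0.81 ± 0.17, edgeR adjusted p 0.000207) and in double KO (0.78 ± 0.17, adjusted p 0.000166), with every library above those of WT. TUBA1A and TUBA1B were lower in DLK KO by -0.30 ± 0.10 and -0.26 ± 0.10 (edgeR adjusted p 0.0172 and 0.0445), and TUBA1B was lower in double KO by -0.29 ± 0.10 (adjusted p 0.018). Leaving out a library ended the call in 4 of 8, 7 of 8 and 3 of 8 refits for these 3 results, with adjusted p up to 0.0964, 0.183 and 0.0931. In ATF2 gRNA, TUBA1A was at 42.3% of Control gRNA (-1.24 ± 0.05, edgeR adjusted p 1.2e-19), TUBA1B at 65.7% (-0.61 ± 0.05, adjusted p 2.37e-11) and TUBA1C changed by -0.77 ± 0.24 (adjusted p 0.00901), the last with overlapping libraries. By group mean, the 3 TUBA1 genes were thus lower and TUBA4A higher in untreated ATF2 gRNA. In JUN gRNA every library had less TUBA1A than every Control gRNA library, but the difference of -0.12 ± 0.05 was not called (edgeR adjusted p 0.0975). The 5 pluripotency markers summed to 63.1 to 71.0 CPM in untreated double KO, 24.5 to 37.2 in LZK KO and 16.2 to 19.5 in DLK KO, against 22.9 to 27.2 in WT. They summed to 55.2 to 62.3 CPM in untreated ATF2 gRNA against 24.5 to 28.7 in Control gRNA, the neuron markers to 8184 to 8734 against 10188 to 10827, and the progenitor markers to 744 to 821 against 1311 to 1404. The part of these in the tubulin differences was not tested.

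TUBA8 was close to the limit of counting, with 1 to 14 reads per library in experiment 1 and 0 to 38 in experiment 2. Its group means were 0.434 to 0.730 CPM in experiment 1 and 0.152 to 0.410 CPM in experiment 2. Libraries overlapped in every vincristine and untreated comparison and none was called. In WT the change with vincristine was -0.18 ± 0.51 (edgeR adjusted p 0.826), so a fall of the size seen for TUBA4A was not detectable at this depth.

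TTC5, the sensor, was called lower with vincristine in Control gRNA and JUN gRNA and in no other line, with changes smaller than those of TUBA1A and TUBA1B. In WT it stood at 51.9, 54.4, 55.0 and 55.8 CPM untreated and at 42.9, 48.3, 53.3 and 56.2 with vincristine, which overlap. The level with vincristine was 92.4% of the untreated one, with an interval at the 95% level of 83.7% to 102% (edgeR adjusted p 0.254; -0.17 and adjusted p 0.0694 without WT vincristine replicate 4). With voom the change in WT was -0.18 and called (adjusted p 0.0347). In double KO it stood at 49.9, 51.7, 52.6 and 54.9 CPM untreated and at 46.7, 48.2, 48.2 and 52.6 with vincristine, also overlapping, at 93.6% (84.8% to 103%). In DLK KO it stood at 52.6, 54.4, 56.2 and 58.0 CPM untreated and at 44.8, 47.4, 48.3 and 48.8 with vincristine. In LZK KO it stood at 44.0, 44.5, 45.1 and 54.5 CPM untreated and at 37.5, 39.8, 41.3 and 41.7 with vincristine. In both lines every treated library was below every untreated one, but the changes of -0.23 ± 0.07 and -0.23 ± 0.08 missed the threshold (edgeR adjusted p 0.055 and 0.0866). DLK KO was called with DESeq2 (adjusted p 0.0272), with voom (0.00436), with a filter at a mean of 1 CPM (0.0471) and when only its groups entered the fit (0.0149).

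A fall of TTC5 was called in Control gRNA, where it stood at 48.0, 50.7, 50.7, 51.8 and 53.8 CPM untreated and at 38.2, 39.0, 40.0, 40.2 and 40.9 with vincristine. The groups were fully apart and the level left was 77.8% (-0.36 ± 0.05, edgeR adjusted p 1.95e-08). In JUN gRNA it stood at 44.9, 45.0, 46.8, 47.6 and 48.0 CPM untreated and at 41.5, 42.0, 42.3, 42.6 and 43.6 with vincristine. The fall of -0.13 ± 0.05 was just called (edgeR adjusted p 0.0498), and leaving out any of 7 of the 10 libraries ended the call (adjusted p up to 0.121), as did RLE factors, no filter, the replicate block and a fit of these groups alone. In ATF2 gRNA it stood at 42.5, 44.4, 44.6, 44.9 and 46.7 CPM untreated and at 39.1, 42.5, 43.6 and 44.0 with vincristine, which overlap, and changed by -0.08 ± 0.05 (edgeR adjusted p 0.464). The fall was smaller than in Control gRNA both in ATF2 gRNA (0.29 ± 0.07, edgeR adjusted p 0.00179) and in JUN gRNA (0.23 ± 0.07, adjusted p 0.0123), the latter at adjusted p 0.0537 without JUN gRNA untreated replicate 5. ATF2 gRNA, the line with the deepest fall of TUBA1A, had the smallest estimated change of TTC5. Untreated TTC5 was lower in ATF2 gRNA than in Control gRNA (-0.19 ± 0.05, edgeR adjusted p 0.000883) and in LZK KO than in WT (-0.21 ± 0.07, adjusted p 0.0258). The latter rests on overlapping libraries and was lost on leaving out any of 3 of the 8 (adjusted p up to 0.0896) and with no filter (0.111). In untreated JUN gRNA every library had less TTC5 than every untreated Control gRNA library. That difference of -0.13 was not called in the main fit. It was called with DESeq2 (adjusted p 0.00713), RLE factors in edgeR (0.0431), a filter at a mean of 1 CPM (0.0251) and voom (0.0464).

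To compare the alpha genes with each other, CPM was divided by the gene length in kb of the count table. The 5 genes summed in untreated WT to 1282 ± 116 CPM per kb (SD, n = 4), and with vincristine to 337 ± 60.8. In LZK KO the sum went from 1390 ± 137 to 615 ± 70.2, in DLK KO from 1048 ± 52.6 to 325 ± 43.0 and in double KO from 1206 ± 36.9 to 387 ± 17.5. In Control gRNA it went from 2267 ± 58.0 to 659 ± 13.8, in JUN gRNA from 2092 ± 55.7 to 657 ± 66.4 and in ATF2 gRNA from 1029 ± 37.8 to 228 ± 14.6. As a share of all reads the 5 genes made up 0.429% in untreated WT and 0.113% with vincristine. TUBA1A made up 90.0% of the untreated WT sum and 91.8% of the treated one, and in ATF2 gRNA 83.7% and 80.3%. TUBA1B was next, at 124 CPM per kb in untreated WT, followed by TUBA4A at 3.49 and TUBA1C at 0.759, and TTC5 stood at 5.59 on the same scale.

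The mean share of TUBA4A in the sum was higher with vincristine than without it in every line. It went from 0.273% to 0.539% in WT, from 0.619% to 1.19% in Control gRNA, from 0.708% to 1.46% in JUN gRNA and from 2.51% to 4.66% in ATF2 gRNA. In LZK KO and double KO it was far lower, at 0.0800% and 0.0630% untreated and 0.116% and 0.139% with vincristine. These shares were not tested. Over the same groups the beta tubulins summed to 1046 CPM per kb in untreated WT and 398 with vincristine, to 1081 and 539 in LZK KO, to 1652 and 571 in Control gRNA and to 835 and 241 in ATF2 gRNA, so alpha and beta tubulins were both lower with vincristine.

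**Figure D5:**
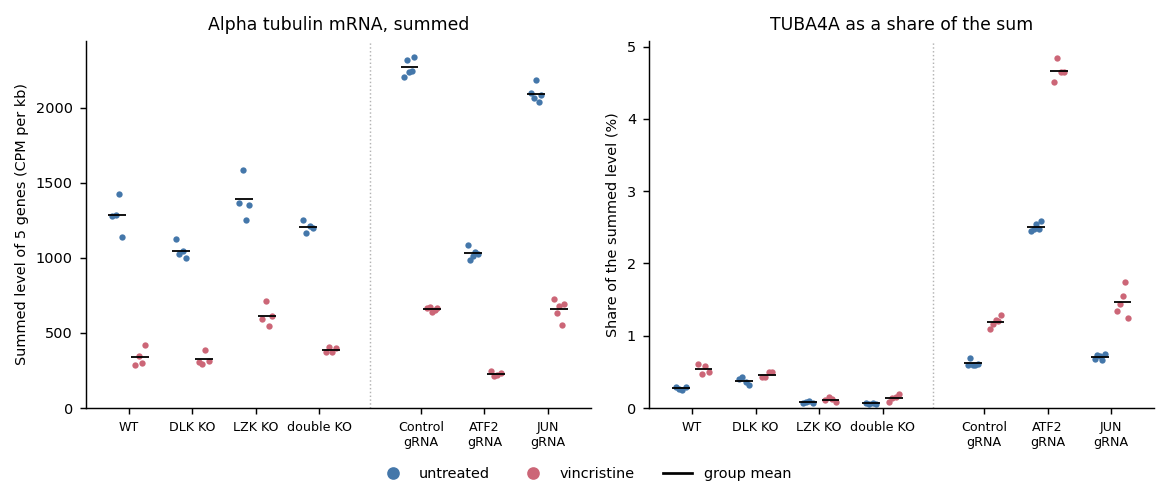
Sum of the 5 alpha tubulin genes in CPM per kb of gene length, and the share of TUBA4A in that sum in percent, per library (points) with the group mean (line); experiment 2 is right of the dotted line. The sum drops with vincristine in each line, in experiment 1 to the largest share of its untreated level in LZK KO (1390 to 615), and the TUBA4A share is highest in ATF2 gRNA (2.51% and 4.66%).

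Other genes of the pathway were read from lists, with p-values adjusted over all genes tested. Of the beta tubulins, 6 of 7 tested in experiment 1 and 6 of 8 in experiment 2 were called lower in every line, where 0.0603% to 18.1% of all genes were. The exceptions were TUBB6, given above, and in experiment 2 also TUBB8, which was not called (-0.06 ± 0.78 in Control gRNA). The 3 with the largest change were TUBB4B (-1.86 in WT, -1.59 in Control gRNA), TUBB4A (-1.81 and -1.75) and TUBB (-1.58 and -1.72). For the difference between LZK KO and WT, 5 of 7 beta tubulins were called as falling less, beside the TUBA1 genes. Of all genes, 12.4% were called for that difference, in either direction. Of the gamma, delta and epsilon tubulins (4 tested), TUBG1 fell as given above, TUBE1, a centriole tubulin, rose in WT (1.30) and Control gRNA (0.90), and TUBD1 fell by -0.38 in Control gRNA, with -0.36 in WT, not called. None of the other alpha tubulins (TUBA3C, TUBA3D, TUBA3E, TUBAL3, TUBA4B) was tested in experiment 1, and the 1 tested in experiment 2 was not called.

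Outside Control gRNA, the partners that TTC5 calls in, SCAPER and 10 tested subunits of CCR4-NOT, were mostly not called. In WT 1 of the 11 was called higher, where 15.7% of all genes were, and 0 lower (14.5% of all genes). In Control gRNA 5 were higher (17.1% of all genes) and 1 lower (18.1%). SCAPER, the adaptor, rose by 0.20 in WT (edgeR adjusted p 0.012) and 0.27 in Control gRNA (adjusted p 1.21e-05), and CNOT6L, a deadenylase, and CNOT10 rose by 0.27 and 0.26 in Control gRNA, with -0.07 and 0.24 in WT, neither called. In DLK KO, LZK KO, double KO and ATF2 gRNA, 0 of the 11 were called, beside 6.53%, 3.88%, 0.0658% and 6.1% of all genes. In JUN gRNA 1 was lower (8.31% of all genes). The median of the 11 was 0.04 in WT and 0.10 in Control gRNA, beside 0.00 and 0.03 for all genes.

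Of the 7 tubulin folding cofactors, which assemble the alpha and beta pair, 1 was called lower in WT (14.5% of all genes) and 3 in Control gRNA (18.1%). TBCB, which binds alpha tubulin, fell by -0.24 and -0.27, and TBCA and TBCD by -0.13 each in Control gRNA, with -0.29 and -0.15 in WT, neither called. Of 14 subunits of CCT and prefoldin, which fold new tubulin, 5 were called lower in WT (14.5% of all genes), 10 in Control gRNA (18.1%), 2 in ATF2 gRNA (4.22%), 4 in JUN gRNA (8.31%) and 0 in the 3 knockout lines. The prefoldin subunit PFDN2 had the largest called change in WT (-0.42, edgeR adjusted p 0.00229), but in Control gRNA it stood at 0.07 and was not called (adjusted p 0.332). VBP1, also of prefoldin, fell by -0.26 in Control gRNA, with -0.32 in WT, not called. CCT5 fell by -0.25 in WT and -0.32 in Control gRNA, CCT6A by -0.26 and -0.24, and CCT7 by -0.23 and -0.31. Of 19 enzymes that modify tubulin, 3 were called higher and 3 lower in WT, beside 15.7% and 14.5% of all genes, so their shares were near those of all genes. In Control gRNA 3 were higher and 5 lower, beside 17.1% and 18.1% of all genes. TTL, which restores the terminal tyrosine of alpha tubulin, rose by 0.38 and 0.32, and VASH2, which removes it, fell by -0.60 and -0.27. TTLL7, a polyglutamylase, rose by 0.22 in WT and 0.60 in Control gRNA. AGBL3 rose by 0.53 in WT, with 0.02 in Control gRNA, not called, and TTLL6 fell by -0.39 in Control gRNA, with -0.11 in WT, not called. All of these are far smaller than the fall of TUBA1A or TUBA1B.

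Ordered by mean level, TUBA1A in experiment 1 ran from LZK KO through WT and double KO to DLK KO without the drug, then LZK KO, double KO, WT and DLK KO with it. Neighbours in that order overlapped in their libraries except at 3 steps, from double KO to DLK KO untreated, from there to treated LZK KO, and from treated LZK KO to treated double KO. In experiment 2 the order was Control gRNA, JUN gRNA and ATF2 gRNA untreated, then Control gRNA, JUN gRNA and ATF2 gRNA treated, and among neighbours only treated Control gRNA and JUN gRNA overlapped. TUBA4A in experiment 2 ran from ATF2 gRNA through JUN gRNA to Control gRNA untreated, and in the same order treated. There JUN gRNA and Control gRNA overlapped untreated, and ATF2 gRNA and JUN gRNA overlapped treated.

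The 3 genes most like each member were taken by the smaller of the 2 Pearson correlations of log2 CPM, over the 32 libraries of experiment 1 and the 29 of experiment 2, among 12334 genes. Libraries of a group share their treatment and line, so these are descriptions. For TUBA1A they were TUBB (0.988 and 0.995), TUBB4A (0.967 and 0.969) and TUBB2A (0.940 and 0.974), and for TUBA1B they were TUBB4B (0.975 and 0.993), TUBB (0.983 and 0.970) and TUBB4A (0.959 and 0.988). All are beta tubulins with the start shown above. For TUBA4A they were COPS6 (0.787 and 0.800), RBPMS (0.838 and 0.784) and PCTP (0.778 and 0.796), with no tubulin among them, and for TTC5 they included BCKDHB (0.726 and 0.769) and CDH12 (0.718 and 0.770). TUBA1C was nearest to EPHB2 (0.716 and 0.703), followed by ZFP14 (0.775 and 0.692) and the beta tubulin TUBB (0.689 and 0.736). For TUBA8 the nearest, ZBTB40, reached only 0.447 and 0.402.

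The promoters of the 6 genes were searched because ATF2 and JUN bind known motifs. In the 8 RefSeq windows of GRCh38.p14 for these genes, from 250 bases before to 50 bases after the start, neither the ATF motif TGACGTCA nor the AP-1 motif TGANTCA was found on either strand. These letters occur in 1.84% and 7.72% of all 34943 such windows.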

How the data were processed

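Per the labels, poly(A) RNA was made into stranded libraries and sequenced as read pairs of 100 bases. The files the authors deposited, separate for the experiments, hold raw gene counts; per the submitters' processing notes the tools were cutadapt 3.4, STAR and featureCounts (Subread 2.0.1) on GRCh38. The strand setting and the handling of duplicates and of reads with several matches are not given in the sources used here. Gene symbols came from GENCODE 29, which held 56992 of the 58440 identifiers in the same version and 1328 in another. All count columns were matched to samples by name, with 0 left unused.

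Each experiment was fitted with edgeR 4.0.16 in R 4.3.3 (filterByExpr by group, TMM factors, robust quasi-likelihood test, 2-sided, all groups in 1 fit), which left 18235 and 20759 genes, the 6 described genes among them. The 20 comparisons cover the effect of vincristine per line, differences of that effect between lines, and untreated lines against WT or Control gRNA. The standard error (SE) is the log2 fold change over the root of F, and intervals at the 95% level span 1.96 SE on either side. Precision is limited by the number of libraries, and for TUBA1C and TUBA8 by their few reads. No replicate was a copy of another (48 and 56 pairs, lowest chi-square per gene 1.58 and 5.20).

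The genes, the pathway lists and the tests were chosen with earlier results of these data known. From each list, the text names the 3 genes with the largest change among called genes of mean log2 CPM of at least 1 in WT and in Control gRNA. Marker lists of neurons, progenitors, dividing, pluripotent and glial cells were summed per library. Alternatives were limma 3.58.1 voom with sample quality weights, DESeq2 1.42.0, RLE factors, fitting just the groups being compared, a replicate block, testing all genes or those with a mean of at least 1 CPM, and refits without 1 library each. The code was tested on simulated counts in which 200 genes had a 2-fold change. Software also included data.table (version 1.17.8), and Biopython 1.88 for sequences and matplotlib 3.10.9 for plots, in Python 3.11.15. One gene among those most like TTC5 is not reported here.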

Additional observations from a re-analysis of the deposited data

Results flagged for a closer look

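A library lay far from the rest of its group in 3 of the 84 groups of values examined (6 genes in 14 groups), where chance gives about 1 in 20. TUBA1C stood at 2.76 CPM in Control gRNA vincristine replicate 5, with the nearest of its group at 1.93, and at 1.24 CPM in JUN gRNA vincristine replicate 1, with the nearest at 0.756. TTC5 stood at 54.5 CPM in LZK KO untreated replicate 2, with the nearest at 45.1.

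The vincristine effect differed between lines, by the interaction test of edgeR, in 13 cases, given as differences of log2 fold changes. From WT to LZK KO these were 0.74 for TUBA1A, 0.91 for TUBA1B and 1.41 for TUBA1C, and from WT to double KO they were 0.62 for TUBA1B and 0.82 for TUBA1C, all of them smaller falls. From Control gRNA to ATF2 gRNA they were -0.45 for TUBA1A and -0.44 for TUBA4A, which are deeper falls, and 0.29 for TTC5. From Control gRNA to JUN gRNA they were -0.98 for TUBA1C and 0.23 for TTC5. From JUN gRNA to ATF2 gRNA they were -0.56 for TUBA1A, -0.28 for TUBA1B and -0.64 for TUBA4A.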

How the results depend on the processing

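No value counted below changed direction with a call under any alternative, and the falls of TUBA1A and TUBA1B with vincristine were called in all 7 lines under each. Of 511 values per gene under an alternative other than leaving out a library, 480 kept their side of the threshold, 17 gained the call and 14 lost it, and of 759 with a library left out, 695 kept it, 3 gained it and 61 lost it. The cause of these shifts was not tested. Both totals leave out TUBA8 and each difference in the vincristine effect between lines that the main fit did not call. A counted difference of that kind could therefore lose its call but not gain one. How many of the 6 genes were called moved as follows. Between DLK KO and WT it was 0, with voom 2. Between double KO and WT it was 2, with no filter 1 and with only the groups compared 1. Between double KO and DLK KO it was 0, with DESeq2 1, with no filter 1, with voom 2 and with only the groups compared 2. Between double KO and LZK KO it was 0, and 1 each with no filter, voom and only the groups compared. For untreated DLK KO against WT it was 2, and 1 with the replicate block. Between JUN gRNA and Control gRNA it was 2, with no filter 0 and with voom 4. For untreated JUN gRNA against Control gRNA it was 0, with DESeq2 2, with RLE factors 1, with the 1 CPM filter 1, with voom 3 and with only the groups compared 1. The count of genes called in double KO went from 12 to 67 with voom and to 1028 with only its groups. Leaving out a library gave 0 to 2 genes of the 6 between DLK KO and WT (2 without WT vincristine replicate 4), 1 to 3 between double KO and WT, 0 to 1 between double KO and DLK KO, 0 to 2 for untreated DLK KO, 0 to 3 between JUN gRNA and Control gRNA and 0 to 1 for untreated JUN gRNA. Counts over all genes that moved by over 1.5 times were 3529 (5498) in WT and 768 (1267) in ATF2 gRNA with only the groups compared, 3583 with voom and 3207 with only the groups (1190) in DLK KO, and 271 with only the groups (707) in LZK KO, with the main count in brackets. They were also 3533 with voom and 1082 with only the groups (2262) between LZK KO and WT, 5867 with voom (3543) between double KO and WT, 429 with DESeq2, 536 with no filter, 2757 with voom and 3208 with only the groups (207) between double KO and DLK KO, and 347 with voom (167) between double KO and LZK KO. Leaving out a library gave as few as 598 genes in DLK KO, 452 in LZK KO (without LZK KO untreated replicate 2) and 114 between double KO and DLK KO. Libraries with the same number in different groups did not deviate together (correlations from -0.41 to 0.19 in experiment 1 and from -0.07 to 0.06 in experiment 2), so the numbers were not taken as pairs, and the replicate block moved no other count of the 6 genes by over 1.5 times. TUBA8, at 0 to 38 reads per library, could show only large changes.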
